A study of Mus musculus with 6 samples.

Results

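The genes described here are 31 genes of the unfolded protein response and of the secretory machinery of the endoplasmic reticulum (ER), chosen by name from a list of such genes. All 31 were found among the 35853 genes with a summed value, and all 31 passed the filter on low counts that left 11406 genes for testing. They were grouped by role into 10 ER chaperones and co-chaperones, 3 protein disulfide isomerases, 4 sensors, factors and degradation genes of the response, 5 genes of the ATF4 arm and 9 genes of the translocon, the TRAP complex and the signal peptidase. The RNA came from blood neutrophils of wild-type BALB/C mice with orthotopic tumours grown for 4 weeks from 4T1, a line of mammary carcinoma cells. Neutrophils, recognised by the surface marker Ly6G, were sorted on Ly6C staining into a Ly6C-high group of 3 libraries and a Ly6C-low group of 3 libraries. Every library therefore came from tumour-bearing mice, and no group without a tumour was part of the comparison. The labels do not give the age or sex of the mice, nor whether replicates are separate mice or pools, so p-values reflect library-to-library spread only, and that spread may be technical.

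The unfolded protein response adjusts the folding capacity of the ER to its load. The kinase IRE1, the gene product of Ern1, splices the mRNA of the transcription factor XBP1, the membrane-bound factor ATF6 is cut to release an active domain, and the kinase PERK slows translation while favouring that of the factor ATF4. Neutrophils load their granules with proteins made on the ER during their formation in bone marrow, and Xbp1 is known to be needed for the formation of eosinophils in mice.

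A regulatory sequence was shared by the promoters of many chaperone genes. The ER stress response element, ERSE, spelled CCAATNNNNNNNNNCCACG, is bound by the factor NF-Y at its first part and by ATF6 or XBP1 at its last. It was searched on both strands in RefSeq promoter windows of 300 bases, from 250 bases before to 50 bases after the gene start. Of the 31 members 26 had a window, and those without were Atf6, Manf, Hyou1, Sec61a1 and Ssr2. ERSE was found in the windows of 7 of the 26 members (26.9%), against 39 of all 32851 windows (0.119%). They were 6 chaperone genes and Pdia6, and Hsp90b1 held 2 copies. The members were chosen as genes of a response in which ATF6 and XBP1 act, so the higher share is not independent of that choice. The sites are shown because they carry the shared element of the chaperone genes. Each is printed in the direction in which the motif reads, on build GRCm38.p6, with the fixed bases of the motif in capitals and 15 bases on either side.
Hspa5, chr2:34772010-34772058, + strand: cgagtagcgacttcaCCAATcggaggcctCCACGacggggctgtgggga
Hsp90b1 upstream site, chr10:86705623-86705671, - strand: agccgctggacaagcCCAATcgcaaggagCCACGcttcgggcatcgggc
Hsp90b1 downstream site, chr10:86705518-86705566, + strand: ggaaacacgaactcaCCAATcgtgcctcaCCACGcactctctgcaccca
Calr, chr8:84847060-84847108, + strand: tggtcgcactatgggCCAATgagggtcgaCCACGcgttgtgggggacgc
Canx, chr11:50325785-50325833, - strand: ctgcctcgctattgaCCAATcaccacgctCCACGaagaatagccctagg
Dnajc3, chr14:118937812-118937860, + strand: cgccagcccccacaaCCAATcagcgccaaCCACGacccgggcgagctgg
Creld2, chr15:88819505-88819553, - strand: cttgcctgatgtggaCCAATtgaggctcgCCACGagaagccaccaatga
Pdia6, chr12:17266476-17266524, + strand: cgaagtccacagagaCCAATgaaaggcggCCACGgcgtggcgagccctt

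A related element and the element of the ATF4 arm were found in other members. ERSE-II, spelled ATTGGNCCACG, was in the window of 1 member, Herpud1, and in 12 of all 32851 windows (0.0365%). The core of the C/EBP-ATF response element, CARE, searched as TGATGNAA, was in 4 of the 26 members (Herpud1, Trib3, Asns and Chac1) and in 1304 of all windows (3.97%). The Trib3 match lay after the gene start and is not printed. ERSE-II and the CARE core did not overlap each other in Herpud1. The sites are printed as above.
Herpud1 ERSE-II, chr8:94386362-94386402, + strand: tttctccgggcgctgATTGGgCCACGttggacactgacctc
Herpud1 CARE core, chr8:94386302-94386339, - strand: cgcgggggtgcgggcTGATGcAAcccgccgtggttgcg
Asns CARE core, chr6:7693210-7693247, - strand: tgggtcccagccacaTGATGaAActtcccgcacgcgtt
Chac1 CARE core, chr2:119351034-119351071, - strand: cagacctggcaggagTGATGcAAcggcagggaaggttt

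A match of letters does not show that a factor was bound. The 8 members with ERSE or ERSE-II had log2 fold changes (Ly6C-high over Ly6C-low) between -0.27 and 0.49 with a median of -0.10, and the other 18 members with a window had a median of -0.14. Values below 0 were found in 6 of the 8 and in 15 of the 18.

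**Figure D1:**
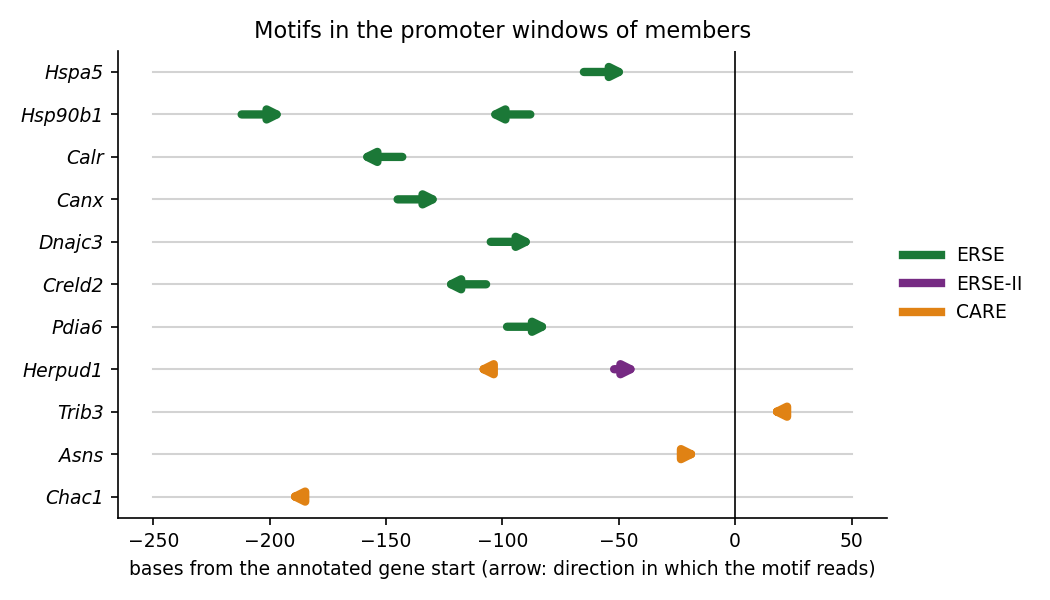
Position of each motif match in the promoter windows of 11 members, in bases from the annotated gene start (0), with arrows for the direction in which the motif reads. Every ERSE match lay before the gene start, in 7 genes, and the CARE match of Trib3 lay after it.

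The libraries held between 19694989 and 20973623 estimated counts in the Ly6C-high group and between 17192372 and 20010700 in the Ly6C-low group. Levels are given as the deposited TPM (transcript abundance corrected for transcript length and for library total) and as CPM (counts corrected for library total and scaled by the TMM method), and tests are on counts. Ly6c1 and Ly6c2 checked the sort, at 8.38-fold and 7.46-fold higher in the Ly6C-high cells with edgeR adjusted p-values of 0.00273 and 0.00382. The neutrophil genes S100a8 and S100a9 made up 34.1% to 34.9% of all TPM in the Ly6C-high libraries and 31.6% to 33.2% in the Ly6C-low libraries. Ly6C-low replicate 3 stood apart: it scored 38.02 on principal component 1, which held 32.8% of the variance, and the other libraries scored between -19.65 and 3.91. The main results are therefore also given without it.

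The level of the 31 genes ranged widely within the same pathway. Averaged over the 6 libraries, 2 members, Sec61b and Hspa5, reached at least 100 TPM, 20 reached at least 10 TPM, and 25 reached at least 5 TPM. Sec61b, the beta subunit of the protein-conducting channel, was highest at 134.5 TPM, above 93.4% of all genes tested. Hspa5, which encodes the main ER chaperone BiP, followed at 101.3 TPM and Xbp1 at 89.8 TPM. The lowest were Sdf2l1, a cofactor of BiP, at 0.614 TPM and Chac1, a glutathione-degrading enzyme, at 1.06 TPM. Summed by role, the translocon group held 385.2 ± 15.2 TPM in Ly6C-high libraries and 426.6 ± 9.74 TPM in Ly6C-low libraries, and the chaperones held 229.4 ± 10.2 and 269.9 ± 17.6 TPM (SD, n = 3 each). The ATF4 arm summed to 91.1 ± 12.2 TPM in Ly6C-high and 107.0 ± 21.5 TPM in Ly6C-low libraries. In TPM the median of all genes tested was also lower in Ly6C-high libraries, at a ratio of mean TPM of 0.931. The translocon group made up 42.0% to 44.8% of the members' TPM in Ly6C-high and 41.2% to 44.1% in Ly6C-low libraries. The chaperones made up 25.1% to 26.7% in Ly6C-high and 26.8% to 27.5% in Ly6C-low libraries, and the ATF4 arm 8.8% to 11.6% in Ly6C-high and 9.5% to 12.5% in Ly6C-low libraries.

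**Figure D2:**
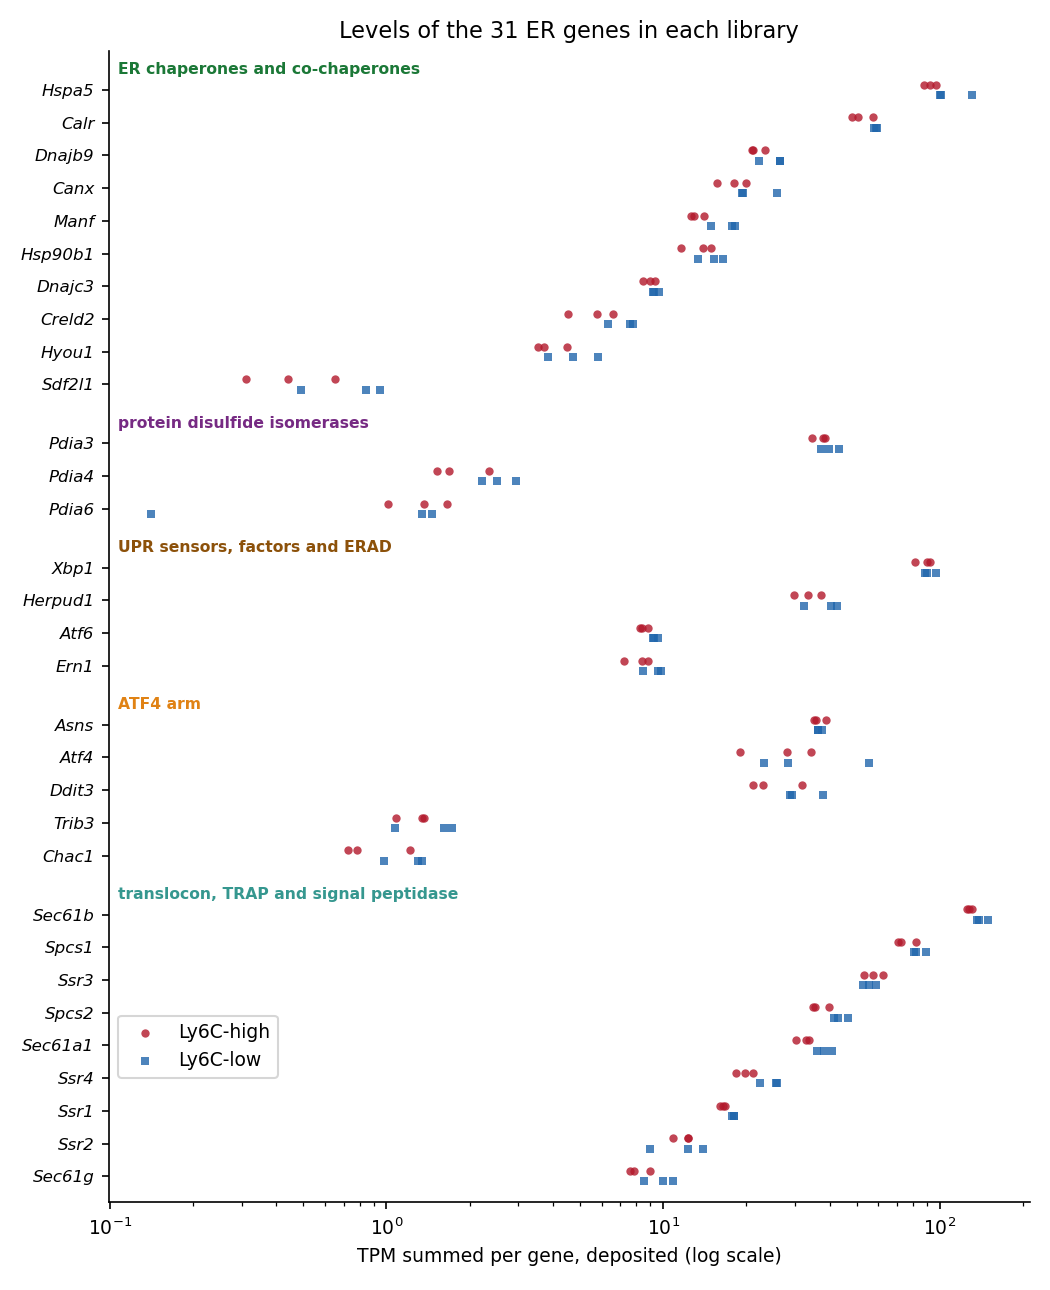
Deposited TPM summed per gene (x axis, log scale) for the 31 genes by role, with a red circle for each Ly6C-high and a blue square for each Ly6C-low library. Most genes show 6 points close together, and the wide spreads are those of Atf4, Sdf2l1 and Pdia6, where Ly6C-low replicate 1 lies at 0.141 TPM.

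None of the 31 genes passed the test of Ly6C-high against Ly6C-low neutrophils at an adjusted p of 0.05. Over all genes tested 0.0351% passed with edgeR's quasi-likelihood test (4 of 11406), 0.0175% higher and 0.0175% lower. In bulk RNA, fewer cells of a type and less RNA per cell cannot be told apart. Of the members 0 had an unadjusted p under 0.05, where 14.3% of all genes had one. Limma voom called 0 members, and DESeq2 called 0 of the 25 to which it gave an adjusted p, with none given for Sdf2l1, Pdia4, Pdia6, Trib3, Chac1 and Sec61g. Both tools had 0 members at an unadjusted p under 0.05, where 14.2% of all genes had one with voom and 12.3% with DESeq2. Over all genes voom called 3 and DESeq2 called 110 at the adjusted threshold. The adjusted p of the members ran from 0.405 for Ern1 to 0.976 for Pdia3. The log2 fold change was below 0 for 25 of the 31, where 50.8% of all genes were below 0. Its median over the members was -0.13 (quartiles -0.21 and -0.04), and over all genes it was -0.00 (quartiles -0.18 and 0.15). Without Ly6C-low replicate 3 the median of the members was -0.10, with 25 of 31 below 0. Values of single members were less settled: leaving out that library moved 14 of the 31 by over 1.5 times or to the other sign (6 to the other sign), and leaving out Ly6C-high replicate 1 moved 20. The 2 groups did not overlap in CPM for 1 member, Hspa5, with Ly6C-high lower, where 21.2% of all genes showed no overlap, 10.9% with Ly6C-high lower and 10.3% with Ly6C-high higher.

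How large a difference the data leave room for is given by the 95% intervals. For 23 of the 31 genes the interval of the fold change lay within 1.5-fold in either direction, against 53.3% of all genes tested. All 9 translocon genes and all 4 sensors and factors were among the 23, as were 8 of 10 chaperones, 1 of 3 isomerases and 1 of 5 genes of the ATF4 arm. The 8 genes with wider intervals were Sdf2l1, Creld2, Pdia4, Pdia6, Atf4, Ddit3, Trib3 and Chac1, most of them among the lowest of the list. Within groups the median coefficient of variation of the members was 8.4% in Ly6C-high and 8.5% in Ly6C-low libraries, against 10.4% and 13.0% over all genes tested. Neither comparison with all genes was matched for level. The lowest of the 20 members with at least 10 TPM, Ssr2, lay above 59.3% of all genes tested.

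**Figure D3:**
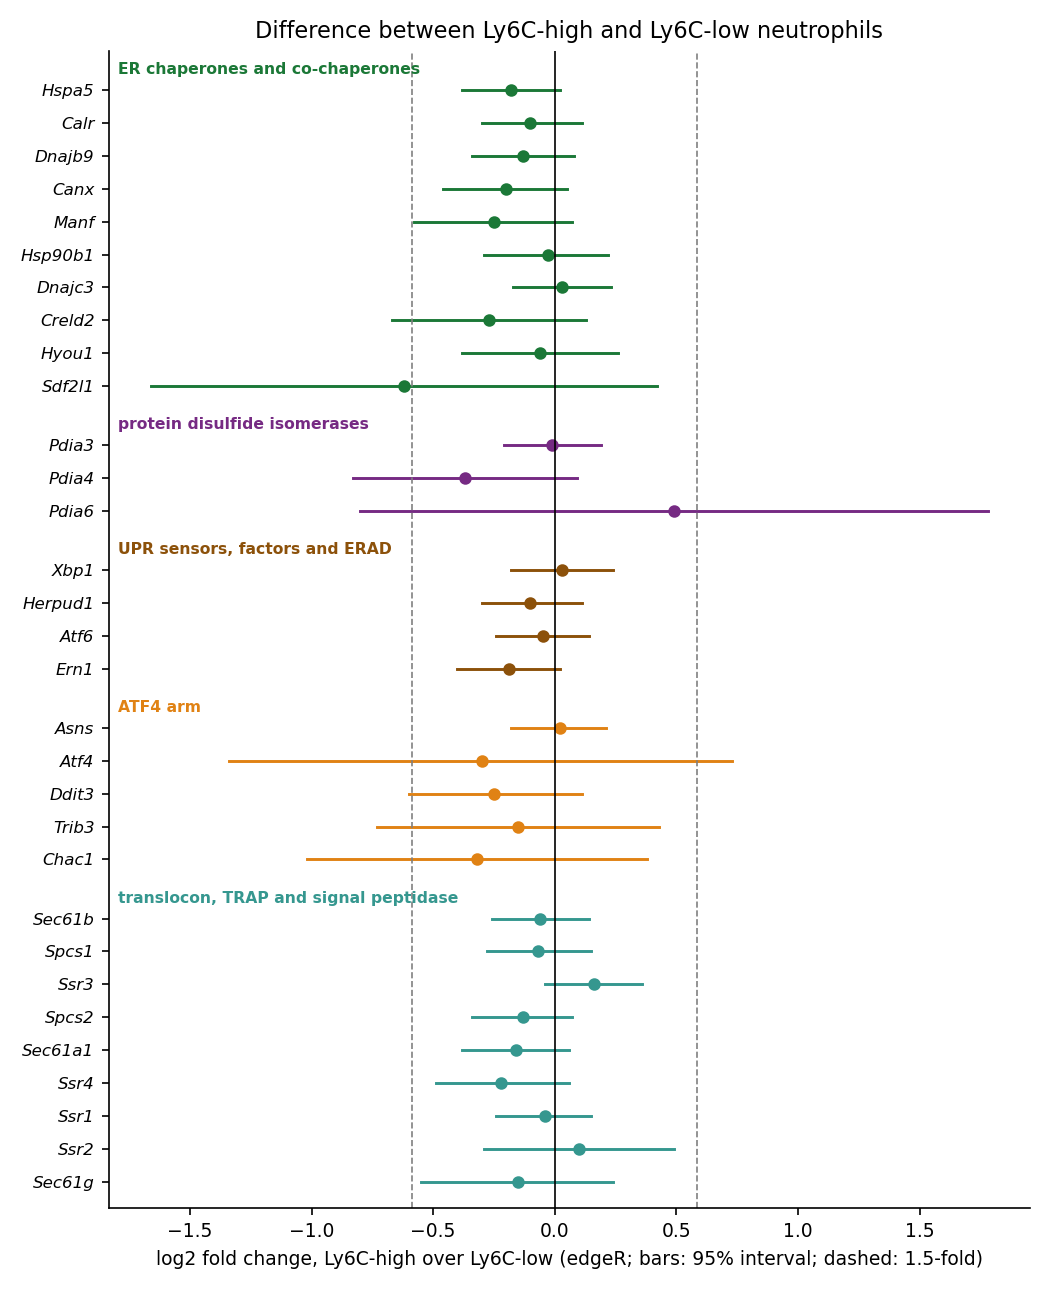
Log2 fold change of each gene, Ly6C-high over Ly6C-low, from the edgeR fit (point) with its 95% interval (bar), by role, with dashed lines at 1.5-fold. Points lie left of 0 for 25 of 31 genes and every interval crosses 0.

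Among the chaperones 9 of 10 had a log2 fold change below 0, with a median of -0.15 and a range from -0.62 to 0.03. Hspa5 measured 182.5, 176.7 and 184.2 CPM in Ly6C-high replicates 1, 2 and 3, against 195.0, 193.8 and 225.1 CPM in Ly6C-low replicates 1, 2 and 3. All 3 Ly6C-high values lay under all 3 Ly6C-low values, and Ly6C-low replicate 3 was the highest. The log2 fold change was -0.18 ± 0.09 (SE), its edgeR adjusted p was 0.408, and the fold change was -0.10 without Ly6C-low replicate 3. Calr, the lectin chaperone calreticulin, averaged 85.4 ± 7.24 CPM in Ly6C-high and 91.3 ± 4.70 CPM in Ly6C-low libraries (SD, n = 3 each). Canx, its membrane-bound partner calnexin, measured 58.9, 45.6 and 45.8 CPM in Ly6C-high libraries, against 62.5, 54.3 and 56.2 CPM in Ly6C-low libraries. These overlapped, since Ly6C-high replicate 1 lay above 2 of the Ly6C-low libraries, and the log2 fold change was -0.20 ± 0.12 (SE).

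The remaining chaperones and cofactors split by level. Hsp90b1, the ER member of the HSP90 family, averaged 33.9 ± 4.35 CPM in Ly6C-high and 34.7 ± 2.95 CPM in Ly6C-low libraries, and Dnajc3, a BiP co-chaperone that also inhibits eIF2-alpha kinases, 42.9 ± 2.75 and 42.0 ± 0.526 CPM (SD, n = 3 each). Dnajc3 was the chaperone above 0, at 0.03, and it was -0.08 when counts were scaled by library size alone. Dnajb9, a BiP co-chaperone that represses IRE1, averaged 42.9 ± 1.45 against 47.0 ± 4.24 CPM. Hyou1, a large HSP70-like chaperone, had a log2 fold change of -0.06, which was -0.20 without Ly6C-low replicate 3 and 0.02 without Ly6C-low replicate 1. The small secreted or luminal stress proteins Manf and Creld2 had values of -0.25 and -0.27, with standard errors of 0.15 and 0.18. Manf measured 8.25, 7.20 and 7.78 CPM in Ly6C-high libraries, against 9.63, 7.96 and 10.1 CPM in Ly6C-low libraries. Its highest Ly6C-high value lay just above its lowest Ly6C-low value. Sdf2l1 rested on few reads, 7.1, 10.4 and 5.3 estimated counts in Ly6C-high against 8.0, 14.4 and 12.3 in Ly6C-low libraries. The resulting log2 fold change, -0.62, had an interval from -1.66 to 0.42.

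The 3 protein disulfide isomerases, which form and rearrange disulfide bonds, differed from each other in level and in spread. Pdia3, which works with calnexin and calreticulin, averaged 90.0 ± 6.38 CPM in Ly6C-high and 90.6 ± 5.87 CPM in Ly6C-low libraries (SD, n = 3 each), with a 95% interval of the log2 fold change from -0.21 to 0.19. Pdia4 measured 3.60, 4.91 and 3.18 CPM in Ly6C-high libraries, against 4.44, 4.98 and 5.67 CPM in Ly6C-low libraries. Its log2 fold change of -0.37 had a standard error of 0.21, and Ly6C-high replicate 2 overlapped the Ly6C-low values. Pdia6 had 40.2, 40.5 and 38.1 estimated counts in Ly6C-high libraries, against 4.6, 39.7 and 38.2 in Ly6C-low libraries. Ly6C-low replicate 1 alone stood apart: without it the log2 fold change was -0.02, against 0.49 with it.

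Of the sensors and factors of the response, 3 of 4 had a log2 fold change below 0, with a median of -0.07. Ern1 had the smallest p of the 31 genes (unadjusted p 0.0759), and in the edgeR fit its adjusted p was 0.405. It measured 42.6, 48.7 and 45.3 CPM in Ly6C-high libraries, against 48.2, 51.6 and 55.7 CPM in Ly6C-low libraries. Ly6C-high replicate 2 overlapped Ly6C-low replicate 1, and the log2 fold change was -0.19 ± 0.10 (SE). Atf6 averaged 57.6 ± 2.49 CPM in Ly6C-high and 59.8 ± 2.46 CPM in Ly6C-low libraries (SD, n = 3 each), a log2 fold change of -0.05. Herpud1, a membrane protein of ER-associated degradation (ERAD), averaged 51.8 ± 3.23 against 55.3 ± 4.33 CPM, a log2 fold change of -0.10.

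Xbp1 measured 159.5, 138.7 and 152.8 CPM in Ly6C-high libraries, against 161.1, 146.0 and 134.3 CPM in Ly6C-low libraries. The values of the groups were interleaved, and the log2 fold change was 0.03 with a 95% interval from -0.18 to 0.24 (-0.07 when scaled by library size alone). IRE1 cuts a segment of 26 bases out of the Xbp1 mRNA, and the joined mRNA encodes the active factor. The segment is shown in capitals as the GENCODE M21 transcript holds it, on chromosome 11, with 12 bases on either side.
Xbp1 IRE1 segment: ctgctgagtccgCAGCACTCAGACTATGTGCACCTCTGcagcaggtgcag
Of the 4 Xbp1 transcripts in the deposited tables that GENCODE M21 describes, 3 hold this segment and 0 hold the joined form. The deposited values give the sum of Xbp1 mRNA and do not separate cut from uncut mRNA.

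In the ATF4 arm, Atf4 itself varied widely between libraries. The median log2 fold change of the arm was -0.25, with 4 of 5 genes below 0, and it was -0.13 without Ly6C-low replicate 3. Atf4 measured 28.4, 41.3 and 50.6 CPM in Ly6C-high libraries, against 33.1, 39.6 and 75.8 CPM in Ly6C-low libraries. The groups overlapped, with Ly6C-high replicate 1 the lowest and Ly6C-low replicate 3 the highest of the 6. The Atf4 log2 fold change was -0.30 ± 0.40 (SE), and it was 0.14 without Ly6C-low replicate 3. The coefficient of variation of Atf4 was 27.8% in Ly6C-high and 46.5% in Ly6C-low libraries. Ddit3, which encodes the pro-apoptotic factor CHOP, measured 13.2, 14.1 and 19.6 CPM in Ly6C-high libraries, against 17.3, 16.9 and 21.4 CPM in Ly6C-low libraries. As for Atf4, replicate 3 was the highest library of each group. The log2 fold change of Ddit3 was -0.25 ± 0.16 (SE), with an edgeR adjusted p of 0.524, and it was -0.13 without Ly6C-low replicate 3.

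Unlike Ddit3, the known targets Asns, Trib3 and Chac1 were not highest where Atf4 was. Asns, asparagine synthetase, measured 60.1, 59.8 and 56.5 CPM in Ly6C-high libraries, against 61.7, 57.9 and 54.4 CPM in Ly6C-low libraries. In both groups replicate 3, the library highest in Atf4, was the lowest in Asns, by small amounts. The log2 fold change of Asns was 0.02 with a 95% interval from -0.18 to 0.21, and -0.09 when scaled by library size alone. Trib3, a pseudokinase that inhibits ATF4 and AKT, measured 2.43, 1.81 and 1.86 CPM in Ly6C-high libraries, against 2.7, 2.36 and 1.7 CPM in Ly6C-low libraries. Chac1 measured 1.69, 1.07 and 0.979 CPM in Ly6C-high libraries, against 1.7, 1.73 and 1.22 CPM in Ly6C-low libraries. Both were lowest within the Ly6C-low group in replicate 3. Both rested on few reads, 32.0 to 54.0 estimated counts in a library for Trib3 and 20.0 to 34.0 for Chac1. Their log2 fold changes of -0.15 and -0.32 had standard errors of 0.26 and 0.32. Leaving out 1 library moved Trib3 between -0.31 (without Ly6C-low replicate 3) and 0.00 (without Ly6C-low replicate 1), and Chac1 between -0.60 (without Ly6C-high replicate 1) and -0.17 (without Ly6C-high replicate 3).

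**Figure D4:**
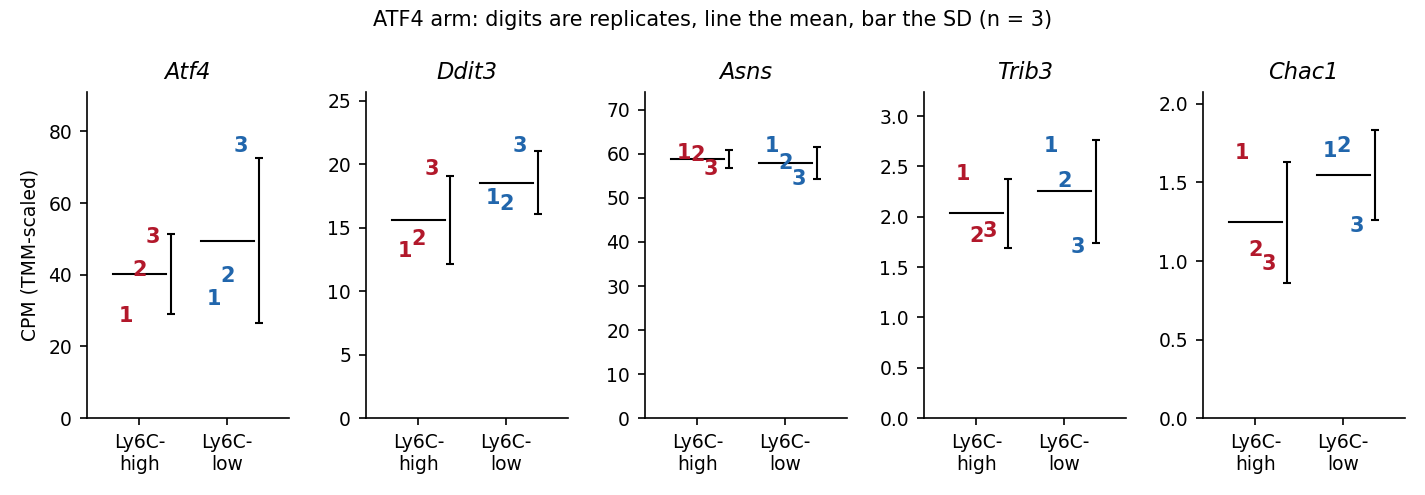
CPM of the 5 genes of the ATF4 arm (y axis, TMM-scaled, from 0) in Ly6C-high (red) and Ly6C-low (blue) libraries, with each digit a replicate, the line the mean and the bar the SD of 3 libraries. Atf4 and Ddit3 are highest in replicate 3 of each group, while Asns stays between 54.4 and 61.7 CPM.

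The translocon group, which moves new proteins into the ER and trims them, had a median log2 fold change of -0.07, with 7 of 9 genes below 0 and a range from -0.22 to 0.16. The median was -0.15 without Ly6C-high replicate 1 and -0.18 when scaled by library size alone. Of the channel itself, Sec61a1, the pore subunit, measured 94.3, 89.3 and 77.4 CPM in Ly6C-high libraries, against 105.0, 93.3 and 93.9 CPM in Ly6C-low libraries. Only Ly6C-high replicate 1 reached into the Ly6C-low range, and the log2 fold change was -0.16 ± 0.10 (SE). Sec61b averaged 40.7 ± 0.813 CPM in Ly6C-high and 42.4 ± 2.80 CPM in Ly6C-low libraries (SD, n = 3 each), a log2 fold change of -0.06. In length-corrected levels the 3 subunits of this complex were unequal, at 35.3 TPM for Sec61a1, 134.5 TPM for Sec61b and 8.95 TPM for Sec61g.

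The low level of Sec61g, the gamma subunit, is uncertain, because its transcripts share 390 of their 2490 words of 31 bases (15.7%) with the transcribed processed pseudogene Gm10177. Reads were assigned mostly to Gm10177, which had 252.2, 222.5 and 272.7 estimated counts in Ly6C-high and 341.9, 271.5 and 335.0 in Ly6C-low libraries. Sec61g itself had 83.8, 75.5 and 76.3 in Ly6C-high and 81.1, 86.5 and 93.0 in Ly6C-low libraries. Alone, Sec61g had a log2 fold change of -0.15 ± 0.18 (SE). The sum of the pair, which does not depend on the division of reads, was 16.9 ± 0.951 CPM in Ly6C-high and 20.9 ± 1.98 CPM in Ly6C-low libraries (SD, n = 3 each). The groups did not overlap, and 10.9% of all genes tested likewise lay wholly lower in Ly6C-high libraries. Counted together, a choice made after the values were seen, the pair had a log2 fold change of -0.30 ± 0.11 (SE), with an edgeR adjusted p of 0.284. Its unadjusted p was then under 0.05, the case for 14.2% of all genes in that fit.

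The 4 subunits of TRAP, the translocon-associated complex that helps some proteins to enter the channel, had log2 fold changes on both sides of 0. Ssr3, the gamma subunit, was the most abundant at 56.6 TPM, against 22.1 TPM for Ssr4, 17.2 TPM for Ssr1 and 11.8 TPM for Ssr2. It measured 166.6, 150.2 and 139.2 CPM in Ly6C-high libraries, against 131.7, 136.4 and 140.8 CPM in Ly6C-low libraries. The groups met at Ly6C-high replicate 3 and Ly6C-low replicate 3, and the log2 fold change was 0.16 ± 0.09 (SE), with an edgeR adjusted p of 0.470. Ssr4 averaged 10.8 ± 0.824 CPM in Ly6C-high and 12.5 ± 0.789 CPM in Ly6C-low libraries (SD, n = 3 each), a log2 fold change of -0.22 ± 0.13 (SE). Ssr1 and Ssr2 had values of -0.04 and 0.10, and that of Ssr2 was -0.07 without Ly6C-low replicate 3, where it had its lowest level. Ssr2 shares 13.7% of its words with Rtraf. Spcs1 and Spcs2, non-catalytic subunits of the signal peptidase, had values of -0.07 and -0.13, with standard errors of 0.10 and 0.09. Spcs1 shares 12% of its words with the protein-coding gene Glt8d1, and Sec61b 21.1% with Gm10320, which had 0.0 counts in each library.

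The members were also compared by library. Ly6C-high replicate 3 held the lowest CPM of 12 of the 31 genes and the highest of 0, and Ly6C-high replicate 2 held the lowest of 8. Ly6C-low replicate 1 held the highest of 11 and Ly6C-low replicate 3 the highest of 9 and the lowest of 5. The mean deviation of the members from their own average over the 6 libraries was 0.02, -0.07 and -0.10 on the log2 scale in Ly6C-high replicates 1, 2 and 3, and -0.01, 0.08 and 0.08 in Ly6C-low replicates 1, 2 and 3. Without Pdia6 it was 0.01, -0.09 and -0.12 in Ly6C-high and 0.06, 0.07 and 0.06 in Ly6C-low libraries, so that the sign in Ly6C-low replicate 1 rested on that gene. For the chaperones alone it was 0.03, -0.14 and -0.15 in Ly6C-high and 0.08, 0.10 and 0.07 in Ly6C-low libraries. Ly6C-high replicate 1 thus lay nearer to the Ly6C-low libraries than the other Ly6C-high libraries did. Without Ly6C-high replicate 3 the median log2 fold change of the members was -0.08.

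**Figure D5:**
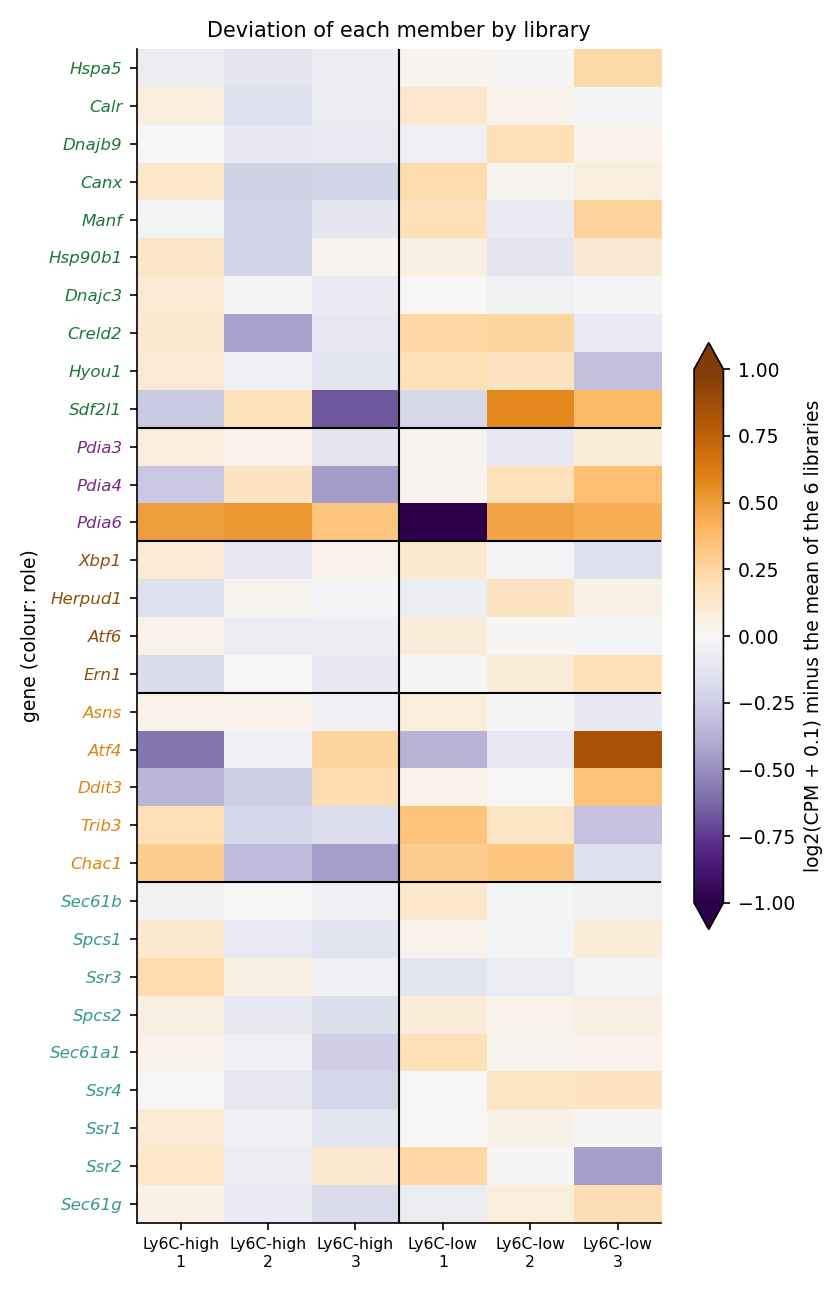
Deviation of each gene (rows, by role) in each library (columns, Ly6C-high left of Ly6C-low) from its mean over the 6 libraries, on the log2 CPM scale, with orange above and purple below the mean. The strongest cells are Pdia6 in Ly6C-low replicate 1 (low) and Atf4 in Ly6C-low replicate 3 (high), and most other cells are pale.

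The size of the difference depended on the scale. In the deposited TPM, which are not adjusted for RNA composition, the 31 genes summed to 895.5, 870.3 and 884.7 TPM in Ly6C-high libraries, against 975.5, 959.7 and 1053 TPM in Ly6C-low libraries, a ratio of means of 0.887 without overlap. On that scale 9 members lay wholly lower in the Ly6C-high group, where 18.1% of all genes tested did, and 0 lay wholly higher, where 4.36% did. The median gene also had less TPM in the Ly6C-high libraries, at a log2 ratio of mean TPM of -0.10, and the median member had -0.20. Scaling counts by library size alone put the median gene at a log2 fold change of -0.11 and the median member at -0.24. Then 9 members had an unadjusted p under 0.05, all lower, with 0 past the adjusted threshold. Of all genes 17.5% had one, counted in either direction.

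Other genes of the pathway, in 7 lists of 129 genes, were set beside the members. Of these 114 were tested, and 84 had a log2 fold change below 0, with a median of -0.07. With edgeR and voom 0 passed the adjusted threshold. DESeq2 called 1, where it called 110 of all 11406 genes tested. Without a filter edgeR called 2 of 126 (P4hb and Eif2ak2), where it called 439 of all 20580 genes. At an unadjusted p under 0.05 there were 3 higher and 7 lower with edgeR, where 6.92% and 7.34% of all genes were. The gene called by DESeq2 was P4hb, the founding protein disulfide isomerase, which measured 111.2, 93.7 and 89.2 CPM in Ly6C-high libraries, against 136.7, 136.8 and 124.2 CPM in Ly6C-low libraries. All 3 Ly6C-high values of P4hb lay under its Ly6C-low values, as was so for 10.9% of all genes tested. Its log2 fold change was -0.44 ± 0.10 (SE), and its adjusted p was 0.172 with edgeR and 0.0303 with DESeq2. It was 0.00396 with edgeR when no filter on low counts was used, and 0.0721 to 0.568 when 1 library was left out.

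The other lists are given with the 2 genes of smallest p in each. Among 14 other ER folding genes 11 were below 0 (median -0.08), and beside P4hb, Erp29, a thioredoxin-fold ER protein, had a log2 fold change of -0.31 ± 0.09 (SE). Among 19 other ERAD genes 12 were below 0 (median -0.05), with -0.40 for Selenos and -0.17 for Syvn1, the ubiquitin ligase HRD1. Among 14 other signalling genes 10 were below 0 (median -0.06), with 0.50 for Eif2ak2, the interferon-inducible kinase PKR, and 0.28 for Ppp1r15b, a phosphatase subunit that acts on eIF2-alpha. Among 20 other ATF4 targets 12 were below 0 (median -0.03), with -0.38 for Aars and -0.26 for Gars, both aminoacyl-tRNA synthetases. Among 16 other genes of the translocon, the signal recognition particle and the signal peptidase 14 were below 0 (median -0.09), with -0.71 for Srprb and -0.26 for Sec63. Among 11 genes of the oligosaccharyltransferase, which attaches sugar chains to new proteins, 9 were below 0 (median -0.15), with -0.33 for Dad1 and -0.20 for Ost4. Among 20 genes of ER exit and retrieval 16 were below 0 (median -0.06), with -0.35 for Sec31a, a coat protein of ER exit vesicles, and -0.25 for Kdelr2, a receptor that returns ER proteins.

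Marker genes of other cells were summed in each library, and their part in the values of the 31 genes was not tested. At an unadjusted p under 0.05 in the edgeR fit, 4 of 6 tested monocyte and 3 of 8 neutrophil markers were higher in Ly6C-high cells. So was Cd3d, the only T or NK cell marker tested. Of the tested markers, 3 of 5 for basophils or mast cells and 2 of 3 for eosinophils were lower. Over all genes 6.92% were higher and 7.34% lower at that p. At the adjusted threshold 0 of the marker genes passed. The 8 neutrophil markers summed to between 366122 and 371394 TPM in Ly6C-high and between 337431 and 353962 TPM in Ly6C-low libraries. The 5 genes that mark neutrophil progenitors, those of azurophil granules and Ms4a3, summed to 8.84 to 13.1 TPM in Ly6C-high and 12.1 to 16.7 TPM in Ly6C-low libraries. The 3 tested genes were all below 0, with edgeR adjusted p-values of 0.544 to 0.663. Elane and Ctsg, with too few reads to be tested, went opposite ways. Elane had 3.0, 7.0 and 0.0 estimated counts in Ly6C-high against 0.0, 1.0 and 1.0 in Ly6C-low libraries. Ctsg had 0.0, 2.0 and 5.0 against 1.0, 5.0 and 7.0. The 10 genes of B cells and plasma cells summed to 9.14 to 13.3 against 11.8 to 16.1 TPM, and Tnfrsf17 was at 0 in every library. Basophil and mast cell genes summed to 2.34 to 4.06 against 6.65 to 33.6 TPM, highest in Ly6C-low replicate 3, with 5 of 5 tested genes below 0. The 5 eosinophil genes summed to 15.7 to 19.5 against 26.7 to 30.1 TPM, mostly Siglecf. Epx was at 0 in every library but Ly6C-low replicate 2, where it had 1.0 estimated counts. The 7 monocyte genes summed to 105.4 to 111.0 against 116.4 to 135.1 TPM, mostly Csf1r, while their median log2 fold change was 0.74. The 7 T and NK cell genes summed to 29.5 to 48.1 against 26.2 to 37.3 TPM, mostly Cd3d. No other gene of that list was above 1.42 TPM in any library. The 5 platelet genes summed to 8.64 to 20.1 against 9.84 to 25.1 TPM, and the 5 erythroid genes to 685.4 to 2422 against 1729 to 2505 TPM. The 5 epithelial genes summed to 1.95 to 4.14 against 2.45 to 5.36 TPM, and Krt8, Krt18 and Krt19 were at 0 in all 6 libraries.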

How the data were processed

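Polyadenylated RNA of 3 Ly6C-high and 3 Ly6C-low libraries had been sequenced, and kallisto and build GRCm39 are named in the submitters' processing notes. Its version, index and strand setting were not given in the sources used here. The authors deposited estimated counts and TPM per transcript. Both were summed per gene through GENCODE M21 (build GRCm38), which matched 99.04% of 117486 transcripts. The builds differ, so no coordinates are given for the deposited values, and the promoter sites carry those of the RefSeq table (GRCm38.p6). Tusc3 had no match. Summed estimated counts were rounded, filtered with filterByExpr, scaled by TMM and tested with edgeR 4.0.16 (quasi-likelihood test, R 4.3.3), with Benjamini-Hochberg adjustment over 11406 genes at a threshold of 0.05. DESeq2 1.42.0 and limma voom 3.58.1 were alternatives, and the edgeR step was tested on simulated data. All 31 members were described, and in every other pathway list the 2 genes of smallest p were named. The members and lists were chosen with earlier results of these data known. Counting Sec61g with Gm10177 was chosen after the values were seen. Intervals cover the spread between libraries. With 3 libraries a group an exact two-sided permutation test of 1 value cannot go below p = 0.1, so none is reported.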

Additional observations from a re-analysis of the deposited data

How the results depend on the processing

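Under the 15 alternatives 0 members passed the adjusted threshold, and 20 of the 31 had the same sign in each one that tested them. The mean count filter left 30 members (no Sdf2l1), and DESeq2 gave 6 members no adjusted p. Over all genes, 4 passed in the reported fit, 8 with scaling by library size alone, 439 with no filter on low counts, 2 with length-scaled TPM and 110 with DESeq2, and between 2 and 22 when 1 library was left out (22 without Ly6C-low replicate 3). Members at an unadjusted p under 0.05 numbered 0 in the reported fit (14.3% of all genes), 9 with library size alone (17.5%), 1 with Sec61g and Gm10177 counted together (14.2%), and 0 to 1 when 1 library was left out (8.42% to 14.1%). The members' median log2 fold change of -0.13 was -0.24 with library size alone, where the median of all genes was -0.11, and ran from -0.14 to -0.08 when 1 library was left out. The cause of these shifts was not tested.

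With the replicate number as a block 61 genes and 0 members passed, and 2 members, Canx and Ddit3, had an unadjusted p under 0.05, where 18% of all genes had one. The labels state no pairing by number. Same-numbered deviations correlated at 0.237 and 0.239 for replicates 1 and 3, above every other combination, and at -0.037 for replicate 2. Ly6C-high replicate 2 correlated best with Ly6C-low replicate 1 (0.11). With the block the standard error of the Atf4 log2 fold change was 0.12, against 0.40 in the reported fit. These values do not settle whether the numbers pair the libraries. Sdf2l1 rested on at most 14.4 estimated counts in a library.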

Other observations

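Part of the estimated counts of some members was assigned to transcripts annotated as retaining an intron. For Atf4 this share was 8.6%, 12.4% and 18.5% in Ly6C-high replicates 1, 2 and 3, against 18.9%, 16.7% and 17.8% in Ly6C-low replicates 1, 2 and 3. The Ly6C-high libraries ran over a wider range, with replicate 3 inside the Ly6C-low range. For Ddit3 it was 7.8%, 13.4% and 11.2% in Ly6C-high, against 9.2%, 15.3% and 17.6% in Ly6C-low libraries. For Xbp1 it was 1.5% to 4.5% in Ly6C-high and 2.4% to 3.5% in Ly6C-low libraries, and for Hspa5 1.1% to 1.5% and 0.7% to 2.1%. These shares were not tested.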
